A study of Mus musculus with 6 samples.

Results

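Mouse embryonic fibroblasts exposed to MFI8, a small molecule inhibitor of mitofusins, were compared directly with the same kind of cells exposed to MASM7, a small molecule activator of mitofusins. The genes compared were those with 10 or more raw counts in each of the 4 compound libraries, which left 13173 of the 55291 genes listed. Across the 6 libraries the cells were wild-type (WT) embryonic fibroblasts, labelled MFI8, MASM7 or Vehicle, with 2 biological replicates in each group. The study's description of its expression panels gives 20 µM MFI8 for 6 h and 1 µM MASM7 for 6 h, so compound and concentration cannot be told apart. The study's methods state that the WT fibroblasts came from another laboratory and that the compounds were dissolved in dimethyl sulfoxide, the carrier. The labels give no genotype beyond WT, no passage and no number of embryos behind the cells, and the p-values below measure only the spread between these libraries. The vehicle libraries served to estimate the spread and, where the replicate number was in the model, its term. They also served to tell which compound had moved a gene.

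Mitofusins are GTPases of the outer mitochondrial membrane, encoded by Mfn1 and Mfn2, which tether neighbouring mitochondria and fuse their outer membranes, while Opa1 fuses the inner membranes. Disturbed mitochondria can signal to the nucleus through the integrated stress response, in which phosphorylation of the initiation factor eIF2alpha slows translation in general and favours translation of the transcription factor ATF4, which in turn drives Atf3, Ddit3, Chac1, Trib3 and genes of amino acid supply. Oxidative or electrophilic stress acts through NRF2 on Hmox1, the glutathione synthesis genes Gclc and Gclm and the cystine carrier Slc7a11. Immediate early genes such as Fos, Egr1 and Klf10 answer within minutes to hours to growth factor or stress kinases.

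The 6 libraries held 22791792 to 30677751 counts each, 99.88% of them in the genes compared. Markers of fibroblasts were abundant in sum, at 5657 to 6850 TPM (counts scaled to transcript length and library size) under MFI8. The sum was 6383 to 7241 under MASM7 and 5833 to 7208 under vehicle. Single markers ranged from Vim, at 1966 to 2531 TPM, to Thy1, at 0.283 to 0.751 TPM. Thy1 had under 10 counts in both MFI8 libraries and so was not among the genes compared. Defining markers of epithelial, endothelial, muscle and neural cells stayed under 1 TPM in sum in every library. Of the haematopoietic markers, Cd68, a lysosomal glycoprotein, reached 8.91 to 11.9 TPM, while Adgre1 and Cd3e were at 0 throughout. Replicates of each group differed beyond sampling noise, with a chi-square per degree of freedom of 7.47 for MFI8, 7.61 for MASM7 and 8.22 for vehicle. The share of counts from mitochondrial DNA was 1.37% and 1.43% under MFI8, 1.61% and 1.51% under MASM7 and 1.66% and 1.82% under vehicle.

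The comparison that treated the replicates as unordered called no gene. With edgeR's quasi-likelihood test 0 of 13173 genes (0%) had a Benjamini-Hochberg adjusted p under 0.05, the smallest adjusted p being 0.185, and 985 genes (7.48%) had an unadjusted p under 0.05, 583 of them higher and 402 lower under MFI8. DESeq2's Wald test called 23 genes on the same design and limma on log2(TPM + 1) called 0. When MFI8 was compared with MASM7 within the same-numbered pairs, by adding the replicate number to the edgeR model, 251 genes (1.91%) were higher and 195 (1.48%) lower under MFI8, 446 in all. The labels do not say that a number marks a shared culture or day. The common dispersion was 0.00391 without the replicate number and 0.00121 with it. Every call below, and every statement that a gene rose or fell, rests on the comparison within pairs. Levels are given in CPM, counts scaled to library size with TMM factors, for replicate 1 and then replicate 2. Fold changes are log2, MFI8 minus MASM7, with their standard error after ±.

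The differences were small. Medians over gene lists and over all genes, percentiles and counts of folds above or below 0 come from the comparison without the replicate number. The list medians within pairs differed from them by at most 0.022. Over all genes the median log2 fold change was -0.0018, with a 5th percentile of -0.27 and a 95th of 0.30. The median over the 251 genes called higher was 0.28 and over the 195 called lower -0.25, and 8 and 3 of them, respectively, changed by over 2-fold. Of those called higher 250 were higher in both pairs and 183 differed more in the replicate 2 pair. All 195 called lower were lower in both pairs, 113 of them by more in the replicate 2 pair. Over all genes 8141 of 13173 (61.8%) had the same sign in both pairs. The model within pairs favours genes whose pairs agree, so the agreement of called genes is no separate support. Both MFI8 libraries lay above both MASM7 libraries for 230 of the 251 (2623 of all genes, 19.9%) and below them for 146 of the 195 (2630 of all genes, 20%). For the remaining 70 called genes the compound groups overlapped. Few calls held without every library. Of the 446, 15 higher and 30 lower were called without each of the 6 libraries in turn; 91 were called without MASM7 replicate 2, 91 without MFI8 replicate 2, 184 without MFI8 replicate 1 and 274 without MASM7 replicate 1, and all 446 without either vehicle library. DESeq2's Wald test within pairs called 110 of the 446. Of 67 called genes named by a fixed rule it called 23, left 41 uncalled, Hspa1a, Mt1, Mt2, Sqstm1, Ddit3, Klf11 and mt-Cytb among them, and gave no adjusted p for 3. The 23 were Atf3, Cxcl10, Gadd45a, Hmox1, H1f2, Dusp1, Ppp1r15a, Slc7a11, Klf10 and Slc48a1 (higher) and Mir5136, Ramp3, Inhbb, Plscr2, Adcy1, Scn3a, Ier3, Tiparp, mt-Nd4, Col5a1, Cxcl12, Ldha and Tfrc (lower). Genes are said below to be called without each library where that was so. Otherwise a fold is given without 1 library whose omission ended the call, and the other such libraries are listed at the end of the results by gene. Such a fold is not the difference of the remaining pair, because the vehicle libraries then help to set the shift between replicate numbers.

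**Figure D1:**
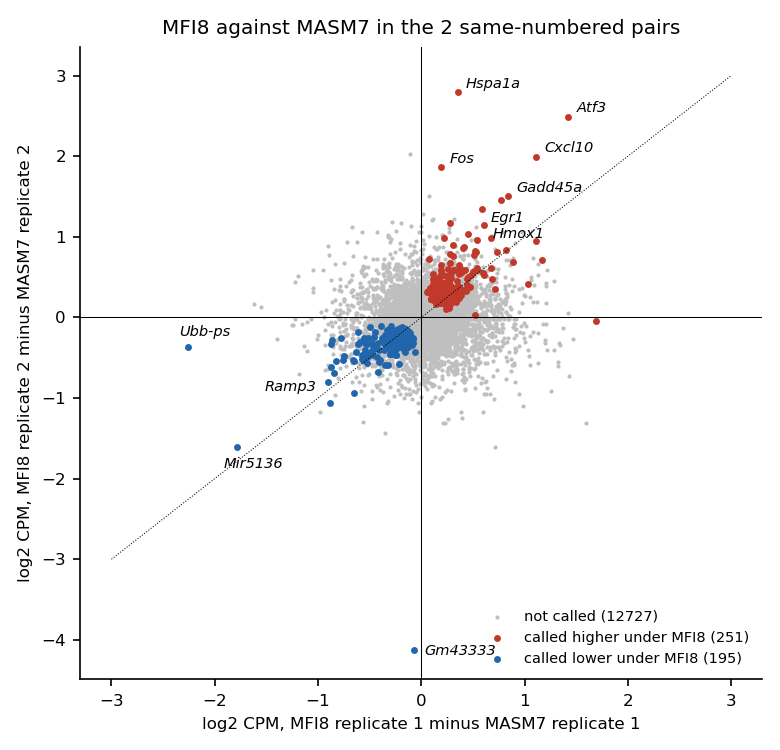
Each point is 1 of 13173 genes, plotted by the log2 difference in CPM between MFI8 and MASM7 in the replicate 1 pair (horizontal) and the replicate 2 pair (vertical), with the dotted line marking equal differences. Of the 251 genes called higher 250 sit in the upper right, and all 195 called lower sit in the lower left. The model favours genes whose pairs agree, and 61.8% of all genes had the same sign in both. Atf3 and Hspa1a lie well above the line, and Gm43333 and Ubb-ps differ mainly in 1 pair.

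Of 20 regulators of the integrated stress response 6 rose under MFI8, none fell and the median log2 fold change was 0.15, against 1.91% and 1.48% of all genes called and a median of -0.0018. With a library left out the list's median was 0.070 without MFI8 replicate 2 to 0.22 without MASM7 replicate 2. Atf3, a transcription factor of the CREB/ATF family (chromosome 1, 191170296 to 191183333 in GRCm38.p6), showed the largest rise of all genes called with separated groups, at 2.24 and 3.06 CPM under vehicle, 2.47 and 3.65 under MASM7 and 6.75 and 20.9 under MFI8. Both MFI8 libraries lay above the other 4, replicate 2 by far the most, and the log2 fold change was 2.12 ± 0.18 (adjusted p = 3.74e-08). Chac1, which degrades glutathione, was at 13.2 and 14.6 CPM under vehicle, 14.99 and 23.5 under MASM7 and 21.4 and 40.2 under MFI8 (log2 fold change 0.67 ± 0.10, adjusted p = 9.90e-05). Trib3, a pseudokinase induced by ATF4 and CHOP, was at 6.10 and 8.75 CPM under vehicle, 7.99 and 11.4 under MASM7 and 10.6 and 20.8 under MFI8 (log2 fold change 0.68 ± 0.11, adjusted p = 3.83e-04). For Chac1 and Trib3 the second MASM7 library lay above the first MFI8 library, so the groups overlapped although both pairs pointed the same way. Ddit3, which encodes CHOP, rose from 13.9 and 14.1 CPM under MASM7 to 17.5 and 21.2 under MFI8 (log2 fold change 0.47 ± 0.095), Ppp1r15a, the regulatory subunit of an eIF2alpha phosphatase, from 26.7 and 29.9 to 33.2 and 44.9 (0.46 ± 0.076) and Nupr1, a small stress-induced chromatin protein, from 12.02 and 14.9 to 15.6 and 18.01 (0.32 ± 0.091). Atf4 itself was not called, with a difference of 0.085 and a 95% interval of -0.0038 to 0.17. Atf3 was called without each library in turn; Chac1, Trib3, Ddit3 and Ppp1r15a were not called without MASM7 replicate 2 or without MFI8 replicate 2, and their folds without the latter were 0.39, 0.41, 0.29 and 0.27, and Nupr1 was not called when any of the 4 compound libraries was left out, its fold then lying between 0.27 and 0.38.

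Of 20 genes of amino acid synthesis and transport 3 rose and none fell, against 1.91% and 1.48% of all genes called. The median was 0.075, a value that turned with 1 library (-0.0088 without MFI8 replicate 2 to 0.14 without MFI8 replicate 1). Slc7a11, the light chain of the cystine and glutamate exchanger, was at 11.7 and 12.8 CPM under vehicle, 13.6 and 12.4 under MASM7 and 19.8 and 24.3 under MFI8. The MFI8 libraries stood clear of all others (log2 fold change 0.76 ± 0.096, adjusted p = 9.19e-06), and the call held without each library. Its partner heavy chain Slc3a2 rose from 210.4 and 244 CPM to 232 and 275 (0.16 ± 0.044) and the glycine transporter Slc6a9 from 24.5 and 26.8 to 28.2 and 34.5 (0.29 ± 0.078); neither was called without MFI8 replicate 2, where the folds were 0.11 and 0.15. Asns, asparagine synthetase, was at 179 and 214 CPM under MASM7 and 195 and 236 under MFI8 and was not called (adjusted p = 0.0962). None of the 20 cytosolic tRNA synthetases, another group of ATF4 targets, was called in either direction, and their median was -0.0011 (-0.085 without MFI8 replicate 2 to 0.079 without MFI8 replicate 1).

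The upstream sequences of 5 of these genes and of Dusp1 are given because all 6 genes were called higher and hold a match to a short motif of the factors named above, which is how they were chosen. They are the 250 bases before the start that the RefSeq promoter table lists in GRCm38.p6, printed 5′ to 3′ on the gene's own strand in lower case. Capitals mark TGATGNAA, the core of the composite element of ATF4 and C/EBP factors, in the first 4 and TGACGTCA, the cyclic AMP response element that CREB and ATF factors bind, in the last 2, both searched on both strands, so that some capitals are the reverse complement of these letters. The Atf3 stretch is chr1:191183334-191183583 (minus strand), Chac1 chr2:119350992-119351241 (plus), Nupr1 chr7:126625471-126625720 (minus), Slc7a11 chr3:50443614-50443863 (minus, at a start that lies inside the listed span of the gene, chromosome 3, 50364936 to 50499087), Ppp1r15a chr7:45526269-45526518 (minus) and Dusp1, a MAP kinase phosphatase described below, chr17:26508473-26508722 (minus).
Atf3: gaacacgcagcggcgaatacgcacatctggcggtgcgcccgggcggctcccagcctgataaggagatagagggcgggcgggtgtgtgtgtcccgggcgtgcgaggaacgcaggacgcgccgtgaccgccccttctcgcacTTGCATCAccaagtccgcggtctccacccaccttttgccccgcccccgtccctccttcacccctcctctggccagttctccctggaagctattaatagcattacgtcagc
Chac1: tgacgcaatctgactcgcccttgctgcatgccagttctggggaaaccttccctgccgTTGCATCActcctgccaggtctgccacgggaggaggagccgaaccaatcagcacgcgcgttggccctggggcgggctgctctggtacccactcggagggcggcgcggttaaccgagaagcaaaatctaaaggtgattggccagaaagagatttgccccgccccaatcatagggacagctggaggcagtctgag
Nupr1: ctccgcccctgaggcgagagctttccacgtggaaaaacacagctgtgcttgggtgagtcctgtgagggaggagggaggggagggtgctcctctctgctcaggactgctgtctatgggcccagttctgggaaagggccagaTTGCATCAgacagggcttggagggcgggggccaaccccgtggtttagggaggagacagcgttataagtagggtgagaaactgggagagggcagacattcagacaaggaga
Slc7a11: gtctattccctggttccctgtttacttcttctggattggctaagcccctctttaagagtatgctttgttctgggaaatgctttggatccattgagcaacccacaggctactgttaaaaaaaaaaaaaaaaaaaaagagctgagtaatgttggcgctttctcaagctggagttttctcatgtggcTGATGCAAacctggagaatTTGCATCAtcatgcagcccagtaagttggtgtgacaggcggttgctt
Ppp1r15a: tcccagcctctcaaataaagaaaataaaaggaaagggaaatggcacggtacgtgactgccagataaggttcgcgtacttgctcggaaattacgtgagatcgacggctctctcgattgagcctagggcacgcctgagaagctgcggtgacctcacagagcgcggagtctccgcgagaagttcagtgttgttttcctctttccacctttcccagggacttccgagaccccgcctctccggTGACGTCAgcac
Dusp1: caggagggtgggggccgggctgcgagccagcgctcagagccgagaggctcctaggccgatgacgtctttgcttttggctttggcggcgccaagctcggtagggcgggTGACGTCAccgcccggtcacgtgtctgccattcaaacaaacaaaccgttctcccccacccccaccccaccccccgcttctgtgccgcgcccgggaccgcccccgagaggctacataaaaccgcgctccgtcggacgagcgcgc
TGATGNAA occurred in 3.45% of all 32851 listed promoters of this length. Among genes tested it occurred in 211 of 9407 with a listed promoter (2.24%), among those called higher in 11 of 201 (5.47%) and among those called lower in 3 of 142 (2.11%). It was present in 3 of the 6 called stress response regulators (50.0%) and in 5 of all 19 regulators with a promoter (26.3%). TGACGTCA occurred in 1.55% of all promoters, in 3.11% of genes tested, in 11 of 201 called higher (5.47%) and in 4 of 142 called lower (2.82%). A further 3 motifs were searched in the same windows. The antioxidant response element of NRF2, TGACNNNGC, occurred in 13.9% of genes tested, 18.4% of those called higher and 13.4% of those called lower, the E-box CACGTG in 945 of 9407, 27 of 201 (13.4%) and 18 of 142 (12.7%), and the heat shock element in 0.446%, 0.498% and 0 of 142. These matches are a description of letters in a fixed window and not of binding.

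Immediate early genes formed the list with the most calls. Of 26 members 13 rose and 2 fell, against 1.91% and 1.48% of all genes called. The median was 0.17 (0.099 without MFI8 replicate 2 to 0.20 without MFI8 replicate 1). Egr1, a zinc finger factor induced by growth factor signalling, was at 62.3 and 63.8 CPM under vehicle, 48.3 and 55.5 under MASM7 and 72.8 and 141 under MFI8. The replicate 2 library under MFI8 was the highest by a wide margin (log2 fold change 1.01 ± 0.11, adjusted p = 5.70e-07; 0.59 and 1.35 in the replicate 1 and 2 pairs). Klf10, a Krüppel-like factor induced by TGF-beta, was at 50.5 and 55.2 CPM under vehicle, 45.2 and 51.8 under MASM7 and 58.1 and 81.8 under MFI8 (log2 fold change 0.52 ± 0.067, adjusted p = 1.12e-05). Both genes were called without each library in turn, with folds of 0.54 and 0.34 without MFI8 replicate 2. DESeq2's Wald test within pairs did not call Egr1 (adjusted p = 0.179). Fosb rose from 3.45 and 4.60 CPM to 5.79 and 8.13 (0.79 ± 0.15) and Fos from 0.677 and 0.657 to 0.784 and 2.59 (1.32 ± 0.34), the Fos rise coming from MFI8 replicate 2, without which its fold was 0.26 and not called. Other AP-1 genes were called at smaller log2 fold changes, of 0.22 for Jun, 0.27 for Jund, 0.17 for Fosl2 and 0.36 for Maff. Junb was not called (0.10, 95% interval -0.046 to 0.25), and Fosl1, also not called, lay in the other direction (-0.13, interval -0.22 to -0.038). Myc, Klf6, Ier5 and the Polo-like kinases Plk2 and Plk3 rose by 0.18 (Plk2) to 0.33 (Klf6). None of these kept its call without MFI8 replicate 2, the folds then lying between 0.035 (Jun) and 0.68 (Fosb).

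Against this direction Ier3, an inhibitor of cell death induced early after stimulation, fell. It was at 77.2 and 82.2 CPM under vehicle, 94.1 and 98.01 under MASM7 and 62.3 and 79.5 under MFI8 (log2 fold change -0.44 ± 0.059, adjusted p = 2.14e-05), below MASM7 in both pairs and called without each library. Egr3 was at 15.6 and 12.9 CPM under MASM7 and 11.7 and 8.78 under MFI8 (-0.48 ± 0.11), and was not called without MASM7 replicate 2 (-0.31) or MFI8 replicate 1 (-0.43). Of 13 feedback genes of the ERK pathway, Dusp1 alone was called, against 1.91% of all genes called higher and 1.48% lower. This nuclear phosphatase of JNK and p38 was at 14.8 and 15.1 CPM under vehicle, 12.02 and 12.4 under MASM7 and 16.4 and 25.4 under MFI8 (log2 fold change 0.78 ± 0.11, adjusted p = 4.57e-05), with 0.44 and no call when MFI8 replicate 2 was left out. Spry2, which restrains receptor tyrosine kinases, was at 37.1 and 33.5 CPM under MASM7 and 32.8 and 29.5 under MFI8 (adjusted p = 0.144).

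Outside the lists, a pair of genes of the same kind were among the 15 largest rises. Klf11, a further TGF-beta induced Krüppel-like factor, was at 2.41 and 2.03 CPM under vehicle, 2.17 and 2.27 under MASM7 and 3.75 and 6.35 under MFI8 (log2 fold change 1.19 ± 0.20, adjusted p = 6.25e-04). Gem, an immediate early small GTPase, was at 0.483 and 1.43 CPM under vehicle, 0.846 and 1.12 under MASM7 and 1.92 and 2.23 under MFI8 (1.07 ± 0.28). The vehicle libraries differed widely for Gem, the second lying nearer to MFI8 than the first, and neither call held without MASM7 replicate 2 (folds 1.01 for Klf11 and 0.92 for Gem). Klf11 was also not called without MFI8 replicate 2 (0.71), nor Gem without MASM7 replicate 1 (1.18) or MFI8 replicate 1 (0.79). Arc, named after its values were seen, was at 15.7 and 18.96 CPM under MASM7 and 22.6 and 33.3 under MFI8 (log2 fold change 0.69 ± 0.092) and was called without each library.

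**Figure D2:**
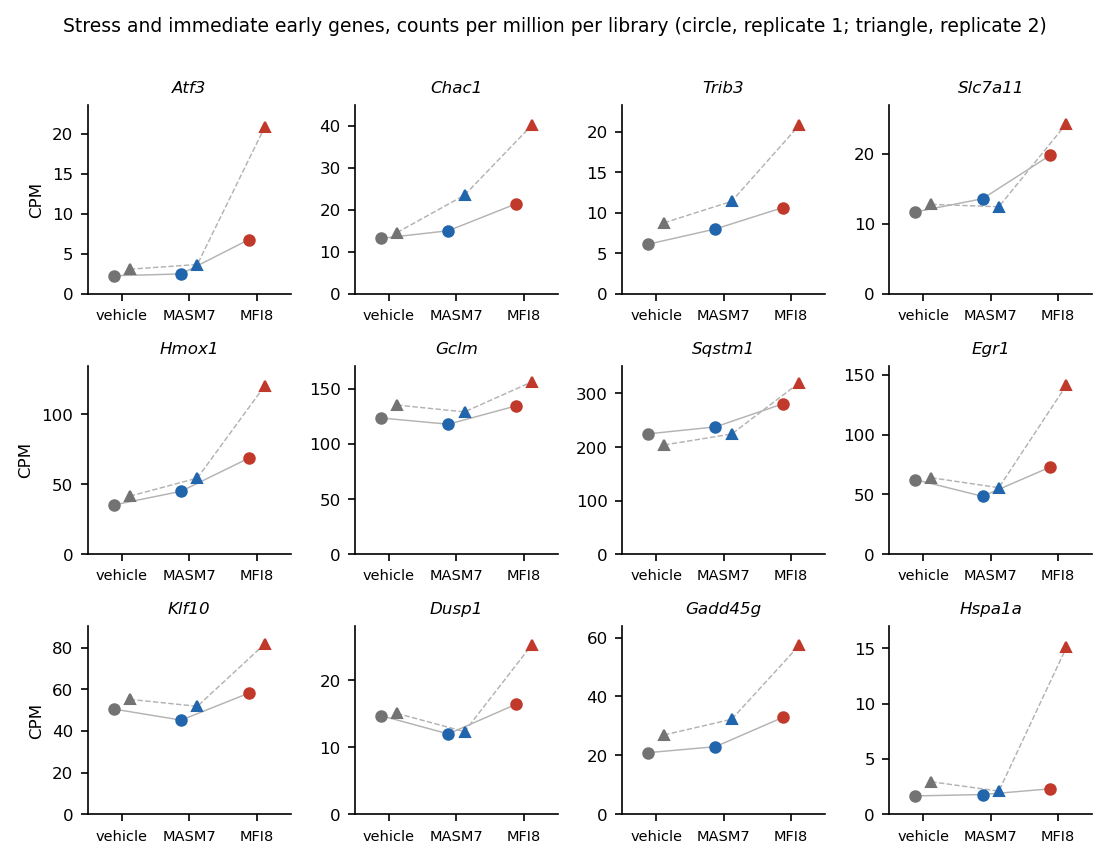
CPM in each library for 12 genes of the stress response, NRF2, immediate early and heat shock lists, with circles for replicate 1 and triangles for replicate 2 joined across vehicle, MASM7 and MFI8. The MFI8 replicate 2 library is the highest for all 12 genes, and for Hspa1a the second MFI8 library lies far above the other 5.

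Of 26 NRF2 targets 5 were called higher under MFI8 and none lower, against 1.91% and 1.48% of all genes. The median was 0.11 (0.054 without MASM7 replicate 2 to 0.13 without MASM7 replicate 1). Hmox1, heme oxygenase 1 (chromosome 8, 75093618 to 75100593), was at 35.1 and 41.4 CPM under vehicle, 44.9 and 54.3 under MASM7 and 68.5 and 120.4 under MFI8. Both MFI8 libraries exceeded the other 4 (log2 fold change 0.91 ± 0.081, adjusted p = 5.46e-08), and the call held without each library. Sqstm1, the autophagy receptor p62, was at 225 and 204 CPM under vehicle, 238 and 224 under MASM7 and 281 and 319.96 under MFI8 (log2 fold change 0.38 ± 0.054, adjusted p = 4.35e-05). The subunits of glutamate cysteine ligase, Gclm (0.24 ± 0.046) and Gclc (0.21 ± 0.055), rose by less, and Slc7a11 was described above. Txnrd1, thioredoxin reductase 1, was at 426 and 416 CPM under MASM7 and 454 and 477 under MFI8, not called (adjusted p = 0.0638). Nfe2l2, the gene of NRF2 itself and named after its values were seen, fell from 92.4 and 85.9 CPM under MASM7 to 78.6 and 75.4 under MFI8, with vehicle at 104 and 92.9 (-0.21 ± 0.051, adjusted p = 0.0177). Both MFI8 libraries lay below the other 4, but the call was lost when any of the 4 compound libraries was left out, at folds of -0.25 to -0.18. Nqo1, a much used NRF2 reporter, was at 3.38 and 2.43 CPM under MASM7 and 3.31 and 3.66 under MFI8 and was not called. Its pairs disagreed, at -0.031 and 0.58. Without MFI8 replicate 2 the folds of Sqstm1, Gclm and Gclc were 0.22, 0.18 and 0.21, none of them called.

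Genes of heme and iron handling split. Of 12 members 2 rose, Hmox1 and the heme transporter Slc48a1, and 2 fell, both importers of iron. Over all genes 1.91% were called higher and 1.48% lower. Tfrc, the transferrin receptor (chromosome 16, 32608896 to 32632794), was at 486 and 547 CPM under vehicle, 484 and 489 under MASM7 and 337 and 389 under MFI8. Its MFI8 libraries lay below all others (log2 fold change -0.43 ± 0.047, adjusted p = 9.36e-07), and the call held without each library. Slc11a2, the divalent metal transporter that moves iron out of endosomes, was at 123 and 128 CPM under vehicle, 127 and 135 under MASM7 and 112 and 115 under MFI8 (-0.21 ± 0.046, adjusted p = 0.00984), and was not called without MFI8 replicate 2 (-0.19). Slc48a1 was at 226 and 233 CPM under MASM7 and 258 and 277 under MFI8 (0.22 ± 0.044, adjusted p = 0.00307; 0.16, not called, without MFI8 replicate 2). The ferritin chains were not called, with a log2 fold change of 0.0043 for Fth1 and 0.14 for Ftl1. The exporter Slc40a1 fell short of 10 counts in the MASM7 libraries and so was not among the genes compared.

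Metal binding and zinc export were higher under MFI8 in 3 of 5 members and lower in none, against 1.91% and 1.48% of all genes called. The median was 0.40 and came more from the replicate 2 pair (0.65) than from the replicate 1 pair (0.20). It was 0.19 without MASM7 replicate 2 to 0.65 without MASM7 replicate 1. Mt1, a metallothionein, was at 27.1 and 16.6 CPM under vehicle, 29.5 and 23.1 under MASM7 and 36.5 and 43.1 under MFI8 (log2 fold change 0.62 ± 0.11, adjusted p = 8.26e-04). Mt2 was at 59.8 and 42.9, 62.2 and 45.5 and 71.2 and 71.1 CPM in the same order (0.43 ± 0.075), and the zinc exporter Slc30a1 at 11.4 and 7.68, 10.3 and 6.31 and 12.7 and 10.8 (0.53 ± 0.12). Replicate 1 was higher than replicate 2 under vehicle and MASM7 for all 3, but not for Mt1 under MFI8. Without MFI8 replicate 2 the folds were 0.22, 0.18 and 0.33 and none was called.

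The heat shock result rested mostly on a single library. Hspa1a, an inducible HSP70, was at 1.67 and 2.94 CPM under vehicle, 1.79 and 2.10 under MASM7 and 2.31 and 15.1 under MFI8, and its near-identical copy Hspa1b at 61.03 and 72.8, 57.4 and 81.1 and 60.5 and 135. Reads of the pair cannot be assigned with certainty. Both were called (log2 fold changes 2.002 ± 0.29 and 0.45 ± 0.10), yet without MFI8 replicate 2 the folds were 0.51 and 0.0060 and neither was. Without MASM7 replicate 2 they were 0.85 and 0.33, again without a call. Besides these 2, none of the 14 cytosolic heat shock genes was called. Over all genes 1.91% were called higher and 1.48% lower. Chaperones and proteases of mitochondria held no called gene among 11 members. In the endoplasmic reticulum list Herpud1, a factor of protein degradation, rose (0.26 ± 0.057) and the chaperone cofactor Manf fell (-0.19 ± 0.046), the only calls among 21 members, and neither held without MFI8 replicate 2 (0.23 and -0.18).

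Of the GADD45 family of growth arrest genes Gadd45a and Gadd45g rose, while Gadd45b was not called (0.12, 95% interval -0.012 to 0.25). Gadd45a, a stress sensor induced by p53 and by ATF4, was at 4.96 and 7.16 CPM under vehicle, 5.42 and 6.47 under MASM7 and 9.76 and 18.5 under MFI8. Gadd45g was at 20.9 and 26.97, 22.98 and 32.3 and 32.9 and 57.3 CPM in the same order. The MFI8 libraries lay above the MASM7 libraries for both, for Gadd45g by a narrow margin between the first MFI8 and the second MASM7 library. Log2 fold changes were 1.23 ± 0.13 (adjusted p = 5.89e-07) and 0.70 ± 0.077 (adjusted p = 9.24e-07), and both were called without each library. The p53 list as a whole was divided, with 3 of 23 members higher (Gadd45a, Gadd45g and Plk3) and 2 lower. Over all genes 1.91% were called higher and 1.48% lower. The median of the p53 list was 0.0054 (-0.040 without MASM7 replicate 2 to 0.097 without MASM7 replicate 1). Trp53 itself was at 317 and 321 CPM under MASM7 and 281 and 292 under MFI8 (-0.15 ± 0.044, adjusted p = 0.0464) and its target Phlda3 at 44.1 and 52.4 and 41.5 and 41.4 (-0.22 ± 0.063); for both the vehicle libraries, at 296 and 283 and 40.5 and 44.4 CPM, were nearer to MFI8 than to MASM7. Without MFI8 replicate 2 neither was called (-0.20 and -0.12). Among 21 genes of the BCL-2 family and caspases Apaf1, the scaffold of the apoptosome, was the single call (41.97 and 39.05 CPM under MASM7, 47.8 and 45.99 under MFI8, log2 fold change 0.21 ± 0.059). Vehicle, at 46.4 and 44.7 CPM, was nearer to MFI8 than to MASM7, and the call was lost when any of the 4 compound libraries was left out, at folds of 0.19 to 0.24.

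Of 33 lysosomal and V-ATPase genes 4 rose by small amounts and none fell, against 1.91% and 1.48% of all genes called. A fold above 0 was found for 27 (6512 of all 13173 genes), and the median was 0.051 (0.039 without MASM7 replicate 2 to 0.084 without MFI8 replicate 2). Npc1, which exports cholesterol from lysosomes, was at 49.7 and 52.9 CPM under vehicle, 47.2 and 48.8 under MASM7 and 57.7 and 58.6 under MFI8 (log2 fold change 0.28 ± 0.057, adjusted p = 0.00410). Mcoln1, a lysosomal calcium channel, was at 29.6 and 28.8, 29.9 and 31.8 and 37.4 and 36.5 CPM in the same order (0.26 ± 0.067). The V-ATPase subunits Atp6v0a1 (0.26 ± 0.061) and Atp6v1b2 (0.20 ± 0.051) completed the calls. Pair differences for Npc1 were alike, at 0.29 and 0.26. All 4 lost their call without MFI8 replicate 2, at folds of 0.21 (Atp6v1b2) to 0.29 (Npc1).

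Inflammatory genes did not move as a block. The chemokine Cxcl10 (chromosome 5, 92346638 to 92348889), an interferon and NF-kB target, was at 3.56 and 4.53 CPM under vehicle, 4.43 and 3.94 under MASM7 and 9.67 and 15.97 under MFI8. Both MFI8 libraries were over 2-fold above the other 4 libraries (log2 fold change 1.60 ± 0.15, adjusted p = 1.11e-07), and the call held without each library. It was the single call among 14 interferon-stimulated genes. Ifit2 was at 28.9 and 27.5 CPM under MASM7 and 32.1 and 32.97 under MFI8, with vehicle at 31.2 and 31.9 (adjusted p = 0.0950). The RNA sensor Ifih1 lay under 1 CPM in all libraries, at 0.406 and 0.394 under MASM7 and 0.871 and 0.907 under MFI8 (1.14 ± 0.37, adjusted p = 0.0873). Of 16 NF-kB targets and cytokines 3 fell and none rose, against 1.48% of all genes called lower and 1.91% called higher. The median was -0.090 and its sign rested on 1 library (-0.17 without MFI8 replicate 1 to 0.028 without MFI8 replicate 2). The 3 were the chemokines Cxcl12 (144 and 156 CPM under MASM7, 125 and 134 under MFI8, -0.21 ± 0.045), Cxcl1 (-0.23 ± 0.057) and Ccl7 (-0.23 ± 0.056), none of which was called without MFI8 replicate 2 (-0.21, -0.23 and -0.18). F3, the tissue factor that starts coagulation and named after its values were seen, was at 35.3 and 39.3 CPM under vehicle, 37.4 and 43.1 under MASM7 and 57.2 and 62.3 under MFI8, a rise of 0.57 ± 0.058 (adjusted p = 3.66e-07) that was of like size in both pairs (0.61 and 0.53) and called without each library. Ptx3, a secreted pattern recognition protein chosen in the same way, fell from 29.5 and 33.3 CPM to 20.2 and 24.3 (-0.50 ± 0.072, vehicle 29.6 and 32.7).

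Of 9 transcripts of mitochondrial DNA with enough counts 5 fell under MFI8 and none rose, against 1.48% of all genes called lower and 1.91% called higher. In all, 8 had a fold below 0 (6661 of all 13173 genes). The median was -0.20, with -0.29 in the replicate 1 pair and -0.11 in the replicate 2 pair (-0.25 without MASM7 replicate 2 to -0.13 without MASM7 replicate 1). The remaining 6 of the 15 in the list had under 10 counts in a compound library, and the reason for their low counts was not tested. mt-Nd4, a core subunit of complex I, was at 705 and 762 CPM under vehicle, 700.1 and 667 under MASM7 and 553 and 547 under MFI8. Both MFI8 libraries were the lowest (log2 fold change -0.31 ± 0.047, adjusted p = 9.90e-05), and the call held without each library. mt-Cytb, the cytochrome b of complex III, was at 2102 and 2219.9 CPM under vehicle, 2058 and 1853 under MASM7 and 1656 and 1673 under MFI8 (-0.23 ± 0.050, adjusted p = 0.00615). mt-Nd1 (-0.20), mt-Nd2 (-0.20) and mt-Nd5 (-0.26) fell by similar amounts. Without MASM7 replicate 1 only mt-Nd4 among the 5 was called, and the folds of the others were -0.089 (mt-Nd2) to -0.13 (mt-Cytb). MASM7 also lay below vehicle for all 5, with log2 fold changes of -0.10 (mt-Nd4) to -0.18 (mt-Nd5) against -0.33 (mt-Nd1) to -0.43 (mt-Nd5) for MFI8, from the same vehicle libraries.

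Calls among nuclear genes of the mitochondrion are set beside the 1.48% of all genes called lower. Of 76 nuclear-encoded respiratory subunits 1 was called lower, the Rieske iron-sulfur protein Uqcrfs1 (143 and 160.1 CPM under MASM7, 132 and 132 under MFI8, log2 fold change -0.20 ± 0.047, and -0.15 with no call without MFI8 replicate 2), although 68 had a fold below 0 (6661 of all 13173 genes) and the median was -0.055. Both MFI8 libraries lay below both MASM7 libraries for 39 of the 76, against 20% of all genes, and above them for 3. Lists outside the mitochondrion shared this, with 50 of 78 cytosolic ribosomal proteins and 17 of 34 proteasome genes below. Of 77 mitochondrial ribosomal proteins none was called, 68 were below 0, 31 had both MFI8 libraries below both MASM7 libraries and the median was -0.060. The 3270 shortest genes of the comparison had a median of -0.042. With GC and length offsets the medians were -0.027 and -0.042. With a library left out the respiratory median was -0.075 without MASM7 replicate 1 to -0.029 without MASM7 replicate 2, and that of the ribosomal proteins -0.085 without MASM7 replicate 1 to -0.035 without MASM7 replicate 2. PGC-1 and biogenesis genes held no call among 12 members. The mitofusin genes were not called. Mfn1 was at 111 and 109 CPM under vehicle, 102 and 100.04 under MASM7 and 106 and 101 under MFI8, a difference of 0.031 with a 95% interval of -0.068 to 0.13. Mfn2 was at 119 and 119, 117 and 122 and 123 and 126 CPM in the same order, a difference of 0.055 (interval -0.041 to 0.15), and Opa1 differed by 0.068 (interval -0.023 to 0.16). No gene of the fission list was called either, out of 8.

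Of 23 collagens and matrix genes of fibroblasts 5 fell under MFI8 and none rose, against 1.48% of all genes called lower and 1.91% called higher. The median was -0.091 (-0.17 without MFI8 replicate 1 to -0.036 without MASM7 replicate 1). Col5a1, a minor fibrillar collagen that nucleates fibrils (chromosome 2, 27886381 to 28039510), was at 437 and 378 CPM under vehicle, 456 and 415 under MASM7 and 369 and 325 under MFI8, its MFI8 libraries below all others (log2 fold change -0.33 ± 0.043, adjusted p = 1.59e-05). For Col3a1, Col6a1 and Col6a2 the compound groups overlapped. Col3a1, type III collagen, was at 89.6 and 50.2 CPM under vehicle, 82.3 and 55.2 under MASM7 and 57.1 and 39.8 under MFI8, replicate 1 above replicate 2 in every group. The first MFI8 library thus lay above the second MASM7 library, while the pairs differed by -0.53 and -0.47 (log2 fold change -0.50 ± 0.064, adjusted p = 1.23e-05; unadjusted p = 0.0865 when the replicates were unordered). The other calls were Col6a2 (-0.25), Col6a1 (-0.22) and Col1a1 (-0.21). Col5a1 and Col3a1 were called without each library, whereas Col6a1, Col6a2 and Col1a1 were not called without MASM7 replicate 2 (-0.17, -0.21 and -0.13).

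Also lower were Dcn, Grem1 and Gas1, named after their values were seen and not standing for a class of genes. Dcn, the collagen-binding proteoglycan decorin, was at 138 and 87.8 CPM under vehicle, 133 and 93.7 under MASM7 and 104 and 70.8 under MFI8 (log2 fold change -0.38 ± 0.050, adjusted p = 1.59e-05). Grem1, a secreted antagonist of bone morphogenetic proteins, was at 653 and 503, 707 and 513 and 548 and 423 CPM in the same order (-0.32 ± 0.044), and Gas1, a membrane protein of growth arrest and hedgehog signalling, at 152 and 109, 138 and 108 and 108 and 72.2 (-0.47 ± 0.052). Replicate 1 exceeded replicate 2 for all 3 in all groups, and MFI8 was the lowest library of each replicate number. Of the 10 fibroblast markers compared 6 were called lower (Col1a1, Col3a1, Pdgfrb, Vim, S100a4 and Prrx1), none higher, and the median was -0.18, against 1.48% of all genes called lower. The compound groups overlapped for most of the markers. Both MFI8 libraries lay below both MASM7 libraries for 2 of the 10, the same share as the 20% of all genes. Vim, vimentin, differed by -0.17 ± 0.046 and Prrx1, a mesenchymal transcription factor, by -0.18 ± 0.043. Without MFI8 replicate 2 Pdgfrb (-0.33), Vim (-0.17), S100a4 (-0.13) and Prrx1 (-0.17) were not called. Fewer cells of a type and less RNA per cell cannot be told apart in bulk samples. In the list of SRF and YAP targets 3 of 18 rose and none fell, against 1.91% of all genes called higher. The 3 were Ccn2 (97.1 and 139.7 CPM under MASM7, 119 and 168 under MFI8, 0.28 ± 0.047), Ccn1 (0.21 ± 0.044) and Ankrd1 (0.19 ± 0.044), genes of matricellular and sarcomeric proteins. Their replicate 2 levels exceeded those of replicate 1 in each group, and their compound groups overlapped. Without MFI8 replicate 2 they were not called, at 0.26, 0.22 and 0.19.

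**Figure D3:**
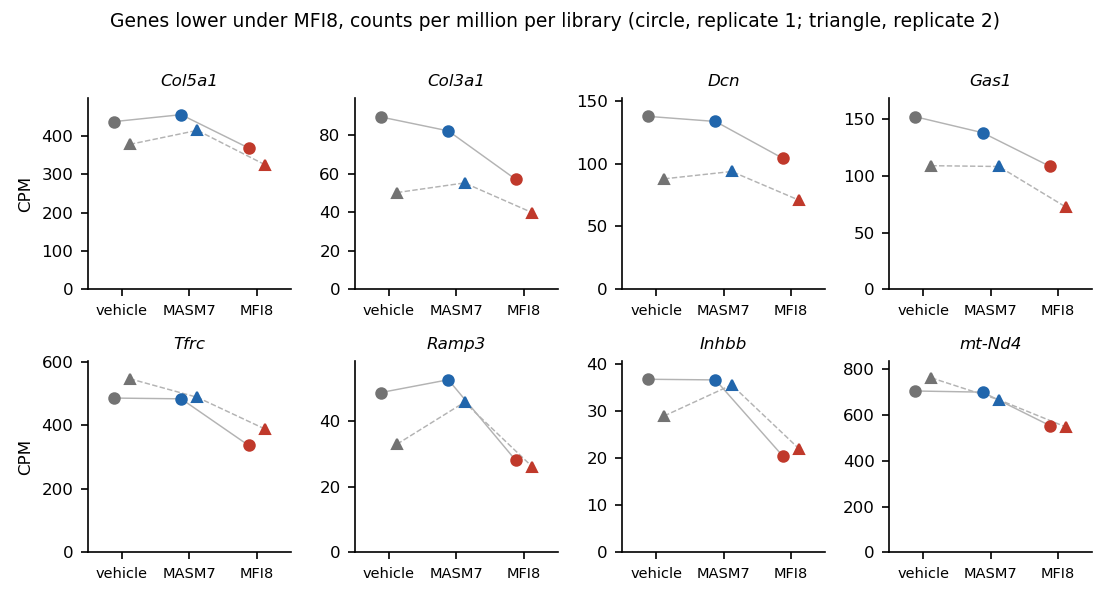
CPM in each library for 8 genes that were lower under MFI8, with circles for replicate 1 and triangles for replicate 2 joined across vehicle, MASM7 and MFI8. For Col3a1, Dcn and Gas1 replicate 1 lies above replicate 2 in every group and MFI8 is the lowest of each number, whereas for Tfrc, Ramp3, Inhbb and mt-Nd4 both MFI8 libraries lie below all others.

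The 15 largest falls were taken from called genes whose MFI8 and MASM7 libraries did not overlap. Ramp3, a receptor activity modifying protein that pairs with the calcitonin receptor-like receptor, was at 48.7 and 32.98 CPM under vehicle, 52.6 and 45.7 under MASM7 and 28.01 and 26.2 under MFI8 (log2 fold change -0.85 ± 0.077, adjusted p = 5.46e-08). Inhbb, a subunit of activin and inhibin, was at 36.8 and 28.998, 36.7 and 35.6 and 20.4 and 21.99 CPM in the same order (-0.76 ± 0.081, adjusted p = 5.89e-07). Plscr2, a phospholipid scramblase, was at 47.4 and 53.7, 52.6 and 54.1 and 33.3 and 37.4 (-0.59 ± 0.061, adjusted p = 3.66e-07). For all 3 the vehicle libraries lay above MFI8 as well, and all were called without each library. Bpgm, bisphosphoglycerate mutase and chosen after its values were seen, was at 71.1 and 64.5, 75.3 and 65.5 and 50.7 and 45.6 CPM (-0.55 ± 0.056) and behaved alike. Mrc1, the mannose receptor, was at 2.77 and 3.26 CPM under vehicle, 5.04 and 4.21 under MASM7 and 2.70 and 1.98 under MFI8 (-0.998 ± 0.19), with MASM7 above vehicle and MFI8 below it; it was not called without MFI8 replicate 2 (-0.81). Scn3a, a neuronal sodium channel subunit (-0.56 ± 0.097), was called without each library. Adcy1, an adenylyl cyclase (-0.57 ± 0.098), was not called without MFI8 replicate 1 (-0.36), and neither was Arrdc3, an arrestin-like adaptor (-0.56 ± 0.11; -0.31).

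Some of the largest values belonged to short or repeated loci, or to a single library. Mir5136, a microRNA locus of the annotation (chromosome 19, 8888699 to 8888774), was at 1.80 and 4.22 CPM under vehicle, 2.74 and 3.32 under MASM7 and 0.741 and 1.04 under MFI8 (-1.79 ± 0.27); a polyA library does not measure the mature microRNA, and an overlapping transcript cannot be told apart. The ubiquitin pseudogene Ubb-ps was at 18.2 and 4.90 CPM in the MASM7 libraries against 3.75 and 3.79 under MFI8 and 4.87 and 5.25 under vehicle, so its call came from MASM7 replicate 1, and without that library the fold was -0.35 and not called. Gm43333 was at 0.922 and 0.597 CPM under vehicle, 17.3 and 17.7 under MASM7 and 16.4 and 0.939 under MFI8. It was high in 3 libraries and near the vehicle level in MFI8 replicate 2, without which the fold was -0.10 and not called, as without MASM7 replicate 2 (-0.18). The ribosomal pseudogene Rps25-ps1, named after its values were seen, stood out in MFI8 replicate 1 in the same manner, at 11.8 and 3.50 CPM against 3.62 and 3.62 under MASM7, and its log2 fold change was 0.0032 without that library. H1f2, a linker histone with close paralogues, was at 4.57 and 5.13 CPM under vehicle, 4.10 and 4.996 under MASM7 and 7.28 and 9.003 under MFI8 (0.84 ± 0.14). The other named rises were Snx29, a sorting nexin (1.73 and 2.04 and 3.96 and 3.40 CPM, 0.96 ± 0.20), the transporter Abca8b (0.90 ± 0.24) and 4933431E20Rik (0.80 ± 0.19), none of them called without MASM7 replicate 1 (0.72, 0.90 and 0.66). The other named falls were Il12rb1, a cytokine receptor chain (-0.75 ± 0.20), Tnnt2, cardiac troponin T (-0.66 ± 0.19), Trim66 (-0.65 ± 0.19), Mycn, a Myc family factor (-0.55 ± 0.12), and Gm20257 (-0.82 ± 0.21), each of them lost without MASM7 replicate 2 and without MFI8 replicate 2, where the folds were -0.96, -0.94, -0.76, -0.50 and -0.77.

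The lists of lipid, sugar and protein synthesis and the other lists of this paragraph held 0 to 2 called genes each, against 1.91% of all genes called higher and 1.48% called lower. Of 33 genes of sterol and fatty acid synthesis 27 had a fold below 0 and 2 were called lower, the desaturase Scd2 (829 and 734 CPM under MASM7, 722 and 634 under MFI8, -0.21 ± 0.047) and the elongase Elovl6 (94.6 and 87.7 and 79.02 and 76.8 CPM, -0.23 ± 0.053). The list's median was -0.063 (-0.084 without MASM7 replicate 2 to -0.034 without MASM7 replicate 1). Fasn, fatty acid synthase, was at 806 and 810.1 and 744 and 708 CPM (adjusted p = 0.0546). In glycolysis and hypoxia Ldha, lactate dehydrogenase, was the single call of 24 (802 and 843 CPM under MASM7, 743 and 731 under MFI8, -0.16 ± 0.045). Of 78 cytosolic ribosomal proteins 73 lay below 0 and 2 were called lower, Rpl31 (-0.17 ± 0.045) and Rps28 (-0.17 ± 0.046). The list's median was -0.057 (-0.078 without MASM7 replicate 1 to -0.034 without MASM7 replicate 2), and -0.032 with GC and length offsets. The 34 proteasome genes held no call. Tuba1c was the single call of 12 tubulins (-0.17 ± 0.044) and the mitotic kinase Aurka that of 28 replication and mitosis genes (-0.19 ± 0.047). Nr1d2 (0.25 ± 0.065) and Bhlhe40 (0.26 ± 0.064), repressors of the circadian clock, were called higher among 16 clock genes. The aryl hydrocarbon receptor Ahr was at 54.1 and 40.2 CPM under MASM7 and 61.9 and 50.2 under MFI8 (0.26 ± 0.058), while its target Tiparp, at 149 and 145 CPM under vehicle, 158 and 141 under MASM7 and 116 and 124 under MFI8, fell (-0.32 ± 0.052, adjusted p = 3.83e-04). No snoRNA host gene of 13 was called. Of the genes called in these lists Tiparp alone was called without MFI8 replicate 2, and it was lost without MFI8 replicate 1 (-0.22). Without MFI8 replicate 2 the folds were -0.25 for Scd2, -0.22 for Elovl6, -0.15 for Ldha, -0.13 for Rpl31, -0.13 for Rps28, -0.16 for Tuba1c, -0.20 for Aurka, 0.24 for Nr1d2, 0.13 for Bhlhe40 and 0.20 for Ahr.

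**Figure D4:**
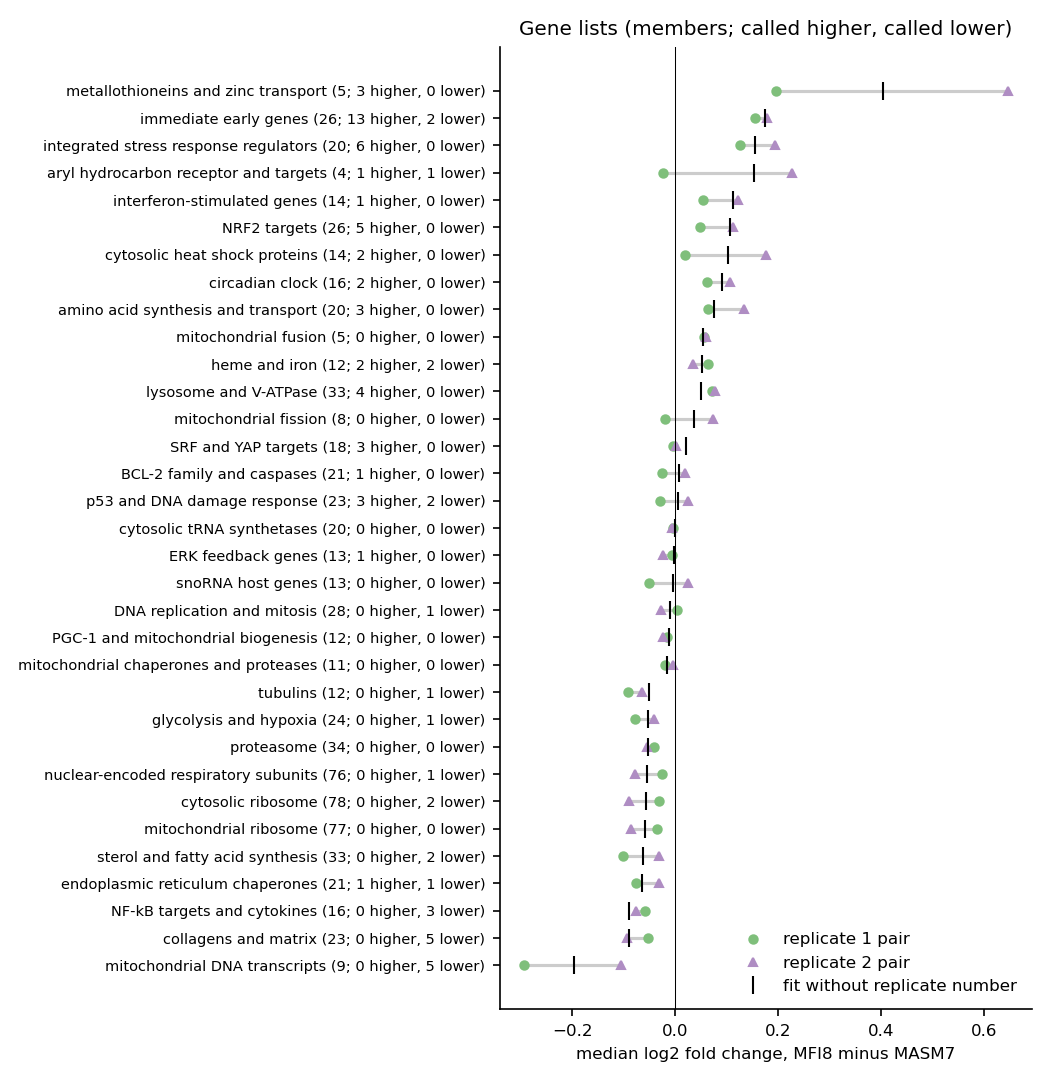
Medians of the log2 fold change in each gene list, MFI8 minus MASM7, for the replicate 1 pair (circle), the replicate 2 pair (triangle) and the comparison without the replicate number (bar), with the members measured and the numbers called higher and lower in brackets. The bar of the metallothionein list lies highest and that of the mitochondrial DNA transcripts lowest, and most other lists lie within 0.1 of 0.

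The vehicle libraries were used to place each difference on a side. A gene was placed with MFI8 if its log2 fold change against vehicle was over 2 times that of MASM7 in size, with MASM7 in the reverse case, and with both otherwise. Of the 251 genes called higher 123 (49%) lay with MFI8, 50 (19.9%) with MASM7, 75 (29.9%) with both in opposite directions and 3 with both in the same direction. Of the 195 called lower 90 (46.2%) lay with MFI8, 64 (32.8%) with MASM7, 40 (20.5%) with both in opposite directions and 1 with both in the same direction. Over all genes tested the shares were 24.9%, 27.1%, 10.3% opposite and 37.8% in the same direction. Called genes were chosen for a difference between the compounds, which disfavours the same direction. The gap between their shares and those of all genes is therefore no separate result. The sides rest on ratios of fitted folds, and within pairs 121 of the 251 and 76 of the 195 were called against vehicle for neither compound. Both differences use the same vehicle libraries, so no test of their relation was made.

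All 6 called regulators of the integrated stress response and all 13 immediate early genes called higher lay with MFI8, as did 4 of the 5 called NRF2 targets and both called heat shock genes. Atf3 stood at 2.40 for MFI8 and 0.20 for MASM7 against vehicle, Cxcl10 at 1.67 and 0.045, and Gadd45a at 1.23 and -0.033. Hmox1 stood at 1.31 and 0.37, and Chac1 at 1.16 and 0.47, so that MASM7 also lay above vehicle. Dusp1 was divided, at 0.50 for MFI8 and -0.29 for MASM7, as was Ier3, at -0.17 and 0.27. Ramp3 (-0.59 and 0.27), Inhbb (-0.63 and 0.14), Tfrc (-0.51 and -0.088) and Col5a1 (-0.23 and 0.094) lay with MFI8. On the MASM7 side were Trp53 (-0.013 for MFI8, 0.14 for MASM7), Apaf1 (0.040 and -0.17) and, named after its values were seen, the nucleolar protein Bop1 (0.022 and 0.22). Bop1 was at 237 and 231 CPM under vehicle, 262 and 284 under MASM7 and 235 and 241 under MFI8. Its call (log2 fold change -0.20 ± 0.044, adjusted p = 0.00889) came with MFI8 libraries near the vehicle level, and was lost without MFI8 replicate 2 (-0.20).

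**Figure D5:**
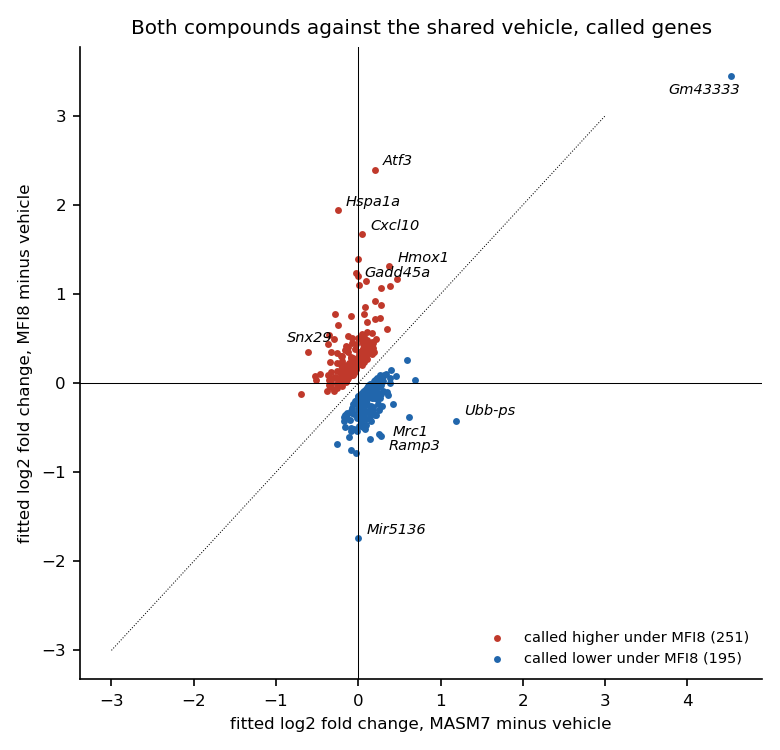
The 446 called genes plotted by their fitted log2 fold change against the shared vehicle libraries for MASM7 (horizontal) and MFI8 (vertical), with the dotted line marking equal change. Atf3, Hspa1a, Cxcl10 and Hmox1 spread along the MFI8 axis, Ubb-ps lies to the right on the MASM7 side, and most genes lie within 1 of 0 on both axes.

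Called genes also differed in the length and base composition of their transcripts, taken from GENCODE models. The median transcript length was 1696 bases over all genes tested with a value, 2538 over the 251 called higher and 1702 over the 195 called lower. On the MASM7 side the genes called higher had a median GC content of 44.8% and those called lower 56.0%, against 50.5% over all genes. On the MFI8 side the order was the reverse, at 51.9% for those called higher and 48.7% for those called lower. Among the 3270 shortest genes, up to 1125 bases, the median log2 fold change was -0.042 and 16 genes (0.489%) were called higher. Among the 3270 longest, from 2506 bases, it was 0.038 and 129 (3.94%) were called higher. When smooth trends with GC content and length were removed from each library, 202 of the 251 (80.5%) and 179 of the 195 (91.8%) were still called in the same direction, with 30 of the 50 higher genes on the MASM7 side (60%) and 109 of the 123 on the MFI8 side (88.6%). The total calls then became 272 higher and 420 lower, and the split of the main comparison, 251 to 195, turned. With library size alone in place of TMM scaling it was 370 to 143. Among the called genes named by the fixed rule, the call ended with GC and length offsets for Apaf1 (fold 0.16, adjusted p = 0.0705), Abca8b (0.81, adjusted p = 0.0582), Tnnt2 (-0.63, adjusted p = 0.0551) and Gm43333 (-1.36, adjusted p = 0.0708). The part of length and GC in the other calls was not tested.

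The libraries whose omission ended a call were, for most genes described above as losing it, more than the 1 given beside the gene. Calls were lost without MASM7 replicate 2 and without MFI8 replicate 2, but not without the other 2 compound libraries, for Ahr, Chac1, Ddit3, Dusp1, Fos, Fosb, Gclm, Gm43333, Hspa1a, Hspa1b, Klf11, Klf6, Maff, Mt1, Mt2, Phlda3, Ppp1r15a, S100a4, Slc30a1, Trib3 and Uqcrfs1. They were lost without both and also without MFI8 replicate 1, but not without MASM7 replicate 1, for Ankrd1, Bop1, Col1a1, Col6a1, Cxcl12, Fosl2, Gclc, Gm20257, Herpud1, Ldha, Manf, Npc1, Nr1d2, Pdgfrb, Plk2, Rpl31, Rps28, Scd2, Slc11a2, Tuba1c and Vim. Calls were lost without MASM7 replicate 1, MASM7 replicate 2 and MFI8 replicate 2, but not without MFI8 replicate 1, for 4933431E20Rik, Abca8b, Bhlhe40, Ccl7, Jun, Jund, Mrc1, Myc, Mycn, Plk3 and Slc6a9. Without MASM7 replicate 2 the log2 fold changes of the rises among these genes were 0.14 (Fosl2) to 1.01 (Klf11) and those of the falls -1.08 (Mrc1) to -0.083 (Rps28). The omission of any of the 4 compound libraries ended the call for Apaf1, Atp6v1b2, Aurka, Cxcl1, Il12rb1, Mcoln1, Nupr1, Prrx1, Slc3a2, Tnnt2, Trim66 and Trp53, at folds of 0.17 (Slc3a2) to 0.38 (Nupr1) for rises and -0.73 (Il12rb1) to -0.14 (Trp53) for falls without MASM7 replicate 2. Calls for Adcy1, Arrdc3, mt-Nd5, Rps25-ps1 and Snx29 were lost without MASM7 replicate 1 and without MFI8 replicate 1, and those for Atp6v0a1, Elovl6, mt-Cytb, mt-Nd1 and mt-Nd2 without these and MFI8 replicate 2, with folds without MFI8 replicate 1 of -0.36 (Adcy1), -0.31 (Arrdc3), 0.25 (Atp6v0a1), -0.24 (Elovl6), -0.21 (mt-Cytb), -0.21 (mt-Nd1), -0.18 (mt-Nd2), -0.20 (mt-Nd5), 0.0032 (Rps25-ps1), 0.87 (Snx29). Ccn1 was also lost without MFI8 replicate 1 (0.18), Col6a2 likewise (-0.23), and Ier5 without MASM7 replicate 1 (0.16) besides MFI8 replicate 2.

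Within pairs, 14 genes called higher and 29 called lower were called in the same direction in all 13 alternatives run with edgeR or DESeq2, those that leave out each library included, while limma on log2(TPM + 1) called none. The higher ones comprised Atf3, Cxcl10, Gadd45a, Gadd45g, Hmox1, Slc7a11, Klf10, F3, Arc and H1f2, and, named after their values were seen, Ahnak, Phldb2, Plcxd2 and Prune2. The lower ones included Ramp3, Inhbb, Plscr2, Tfrc, Bpgm, Col3a1, Col5a1, Dcn, Gas1, Grem1, Ptx3, Ier3, Scn3a, Mir5136 and mt-Nd4. With the replicates unordered, edgeR called 0 of these 43 on all 6 libraries with the filter on counts, 2 on the 4 compound libraries (Inhbb and Ramp3) and all 43 with no filter, and DESeq2's Wald test called 18. With a library left out edgeR called 0 to 7 of them.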

How the data were processed

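PolyA RNA from WT mouse embryonic fibroblasts was sequenced in 6 libraries, 2 each for MFI8, MASM7 and vehicle. Per the labels and the study's methods, the authors trimmed reads with Trimmomatic, aligned them to mm10/GRCm38 with STAR and deposited raw counts per gene from featureCounts, and they also deposited TPM values and a normalized table, which was not used here. The strand setting and annotation release are not given in the sources used here. Without strand, reads from overlapping or antisense genes cannot be told apart.

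Genes with 10 or more counts in each MFI8 and MASM7 library were tested on the counts with edgeR 4.0.16 (R 4.3.3; TMM scaling, quasi-likelihood test, all 6 libraries, 1 coefficient per group), first without and then with the replicate number as a term, with Benjamini-Hochberg adjustment over all 13173 genes and a threshold of 0.05. Log2 CPM of single libraries used a prior count of 2. Alternatives used DESeq2 1.42.0 and limma 3.58.1. With 2 against 2 an exact two-sided permutation test cannot go below 0.333, so none is given. The scripts were also run on simulated counts, in part with a shift between replicate numbers shared by all groups. This checks the code and not whether the replicate numbers mark pairs. Genes named were the 15 largest rises and falls among called genes with separated groups and a mean of 1 CPM or more, taken from the comparison within pairs because the other called fewer than 10, the 3 members of each list with the smallest p without the replicate number, and Mfn1 and Mfn2. Other names are said to be chosen after their values were seen, or are called members of a list or a reference gene of it. The genes compared and the lists were chosen with earlier results of these data known. Positions and upstream sequences are from RefSeq GRCm38.p6, which matched 492 of 499 named or called genes. No chance test of lists was made.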

Additional observations from a re-analysis of the deposited data

How the results depend on the processing

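Without the replicate number, the 0 calls of edgeR stayed 0 with DESeq2 size factors, library size alone, filterByExpr, limma on log2(TPM + 1) and GC and length offsets. They became 168 with no filter on counts, 2 with the 4 compound libraries alone, 23 with DESeq2's Wald test and 0 to 12 when each library was left out in turn. With the replicate block they became 446, and 692 with the block and GC and length offsets together. The labels do not say what a replicate number stands for. Deviations of MFI8 and MASM7 libraries of the same number correlated at 0.235 over all genes and 0.547 over the more abundant genes, with no more than 2 pairs, which is a hint from the data and not the design.

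Within pairs, the 446 calls became 808 with the 4 compound libraries, 111 with DESeq2's Wald test, 0 with limma on log2(TPM + 1) (1774 at an unadjusted p under 0.05), 692 with GC and length offsets and 0 with no replicate block. Leaving out a library gave 100 (without MASM7 replicate 2) to 836 (without vehicle replicate 1), with 109 without MFI8 replicate 2 and 237 without MFI8 replicate 1. A group left with 1 library is assumed to vary like the others. DESeq2 size factors, library size alone, filterByExpr and no filter gave 400 to 520 calls. Where the cause of a change is not evident from fewer samples or genes, the cause was not tested. Among the 120 named genes the direction turned once, for Nqo1, which was -0.073 without MFI8 replicate 2. With no filter and 2 libraries per group, low counts limit what genes under 10 counts can show.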

Other observations

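A few genes fell outside the comparison because they had under 10 counts in the MASM7 libraries, although they had 10 or more in both MFI8 libraries. There were 49 such genes, against 128 with the reverse pattern; the first MFI8 library was shallower than both MASM7 libraries, and the part of depth in these counts was not tested. P2rx7, an ATP-gated ion channel, had 27 and 50 counts under MFI8, 9 and 0 under MASM7 and 4 and 4 under vehicle. Rassf4, a RAS association domain protein, had 10 and 42 counts under MFI8, 2 and 3 under MASM7 and 1 and 2 under vehicle. Slc40a1, the iron exporter ferroportin, had 12 and 20 counts under MFI8, 7 and 5 under MASM7 and 1 and 5 under vehicle. These 3 were chosen after their values were seen and were not tested.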
